A study of Mus musculus with 72 samples.

Results

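The Cyp4a genes encode the cytochrome P450 fatty acid hydroxylases of mouse liver. The 6 genes described here, Cyp4a10, Cyp4a12a, Cyp4a12b, Cyp4a14, Cyp4a31 and Cyp4a32, were chosen by name: they are the rows of the count table whose Ensembl identifiers the annotation pairs with these symbols, 6 of 50307 genes. All 6 passed the filter on low counts and are among the 14954 genes tested. Liver RNA was sequenced from C57BL/6J (B6, spelled C56BL/6J in the strain field) and DBA/2J (DBA) mice, males and females, kept on a Western diet with low isoleucine (WD Low Ile), high isoleucine (WD High Ile) or a control content (WD Control). The 2 strains, 2 sexes and 3 diets give 12 groups of 6 libraries: DBA male, DBA female, B6 male and B6 female livers, each on low, control and high isoleucine. All mice had 12 weeks of diet and a 16 h fast, so every group shares the Western diet and the fast, and neither was varied. For the start of the diets the design text names 6 weeks of age and the treatment text 18 weeks. The age field reads 18 weeks, which does not settle the start. A start at 6 weeks with 12 weeks of diet would also end at 18 weeks of age. Nothing in the labels ties each library to an animal of its own, so p-values measure the spread between libraries, which may be partly technical.

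Cyp4a enzymes add a hydroxyl group to the terminal (omega) carbon of fatty acids, the first step of omega-oxidation, which makes dicarboxylic acids that peroxisomes shorten. In mouse liver Cyp4a10 and Cyp4a14 are classical targets of the fatty acid receptor PPARA and are induced by fasting, fatty acids and fibrate drugs. Cyp4a12a is known in mice for its dependence on male hormone and for making 20-HETE, a vasoactive product of arachidonic acid.

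The 6 genes lie in a cluster on chromosome 4 between 115299046 and 115621602 (GRCm38), a stretch of 322.6 kb. Cyp4a12a (115299046 to 115332815) comes first, followed by Cyp4a12b (115411624 to 115439034), Cyp4a14 (115486200 to 115496142), Cyp4a10 (115518264 to 115533649), Cyp4a31 (115563649 to 115579015) and Cyp4a32 (115600969 to 115621602). Cyp4a14 is on the minus strand and the other 5 are on the plus strand. The table also lists 5 other Cyp4a entries on this chromosome: Cyp4a30b and the pseudogene Cyp4a28-ps had 1 count each over the 72 libraries, and Cyp4a29, Cyp4a29-ps1 and Cyp4a30-ps had 0.

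Several of these genes are near copies of each other, and how far the reads can tell them apart depends on where they differ. The coding sequences of Cyp4a12a and Cyp4a12b are 98.49% identical, with 23 differences over 1527 bases. Below are the 60 coding bases (positions 624 to 683, counted from the start codon) in which the pair differs most, with the 4 differing bases in capitals; coding sequences are from the GENCODE M21 annotation of GRCm38, chromosome 4, written 5′ to 3′.
Cyp4a12a: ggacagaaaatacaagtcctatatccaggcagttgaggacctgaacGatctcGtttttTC
Cyp4a12b: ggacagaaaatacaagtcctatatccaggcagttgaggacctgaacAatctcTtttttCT
Cyp4a10 is 97.19% identical to Cyp4a32 and 96.60% identical to Cyp4a31, and Cyp4a31 and Cyp4a32 are 96.01% identical. The window in which these 3 differ most (positions 200 to 259) has 9 variable bases, in capitals.
Cyp4a10: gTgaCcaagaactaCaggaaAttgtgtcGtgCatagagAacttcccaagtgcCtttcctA
Cyp4a31: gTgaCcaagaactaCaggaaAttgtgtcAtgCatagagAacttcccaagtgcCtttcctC
Cyp4a32: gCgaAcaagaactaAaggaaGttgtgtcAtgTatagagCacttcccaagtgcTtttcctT
Cyp4a14 stands apart from the other 5, with identities of 75.00% to 75.98%. The window in which all 6 differ least (starting at position 1339, 1342 or 1345) has 6 variable bases, in capitals. Within it Cyp4a31 and Cyp4a32 read as Cyp4a10, and Cyp4a12b reads as Cyp4a12a, so 1 sequence of each kind is shown.
Cyp4a10: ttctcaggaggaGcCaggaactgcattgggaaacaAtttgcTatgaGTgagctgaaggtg
Cyp4a12a: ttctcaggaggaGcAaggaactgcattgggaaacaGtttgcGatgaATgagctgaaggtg
Cyp4a14: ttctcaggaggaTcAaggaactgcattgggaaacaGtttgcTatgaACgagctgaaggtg

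Over whole transcripts, 35.8% of the 100-base stretches of Cyp4a12a and 36.2% of those of Cyp4a12b occur in the other gene of that pair. The shared part is 20.1% for Cyp4a32, 12.7% for Cyp4a10, 8.2% for Cyp4a31 and 0% for Cyp4a14. It depends on the length of the stretch. At 50 bases it is 48.9% for Cyp4a12a, 49.4% for Cyp4a12b, 46.8% for Cyp4a32, 30.5% for Cyp4a10 and 0.2% for Cyp4a14. For Cyp4a31 it is 21.7% at 50 bases, shared with 310 other genes. At 150 bases it is smaller, at most 25.9% (Cyp4a12b). Cyp4a14 had whole counts in all 72 libraries, whereas 88.9% (Cyp4a12a) to 100% (Cyp4a31) of the nonzero counts of the other 5 were not whole numbers. Values of single genes within the Cyp4a12a and Cyp4a12b pair, and of Cyp4a31 and Cyp4a32 beside the far more abundant Cyp4a10, are therefore uncertain, and the summed copies are given as well.

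Library totals, in units of 1e+06 counts, were 13 to 51.1 (median 24.1), and the lowest TMM factor was 0.841. Xist had at least 217 CPM in each of 36 female libraries and at most 0.985 CPM in each of 36 male libraries. Ddx3y was at 15.7 CPM or more in all male libraries and at 0 in all female libraries but 1, B6 female control replicate 4, which had 0.568 CPM. That library also held the highest Cyp4a12a, Cyp4a12b, Cyp4a31 and Cyp4a32 of its group, and Mup20 (chosen after its values were seen) was at 672 CPM there and at 54.3 to 83 CPM in the other 5. Other male-biased genes read there did not stand apart in this way. Elovl3 was at 6.05 CPM (4.44 to 10.55 in the other 5), Slco1a1 at 4.95 CPM (0.0736 to 8.92) and Cyp2d9 at 67.2 CPM (49.6 to 65.1). Single-gene calls with edgeR that rest on this library are given with and without it. Of the hepatocyte markers Alb had 41930 CPM or more in every library; the kidney tubule markers Slc34a1, Umod, Kap and Slc22a6 (kidney also expresses Cyp4a genes) stayed at 0.181 CPM or less.

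Cyp4a14 and Cyp4a10 made up most of the family's RNA in every group (plot of levels by library for Cyp4a14, Cyp4a10, Cyp4a31 and Cyp4a32). Levels are in CPM, the counts of a gene per 1e+06 counts of the TMM-scaled library. The summed level of the 6 genes ran from 18540 ± 1710 CPM in B6 males on low isoleucine down to 5014 ± 958 CPM in DBA males on control (SD, n = 6 each). As a share of all counts these groups had medians of 1.77% and 0.530%. Per kilobase of exon, the median level of Cyp4a14 in B6 males on low isoleucine was 3998 CPM per kb and that of Cyp4a10 was 3591, against 52.3 for Cyp4a31, 48 for Cyp4a32, 43.8 for Cyp4a12a and 28.8 for Cyp4a12b. In DBA males on control the order was different: Cyp4a10 had 1014 CPM per kb, Cyp4a14 451, Cyp4a12a 446, Cyp4a32 204, Cyp4a12b 139 and Cyp4a31 5.67.

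Cyp4a14 ranged over the 12 groups by 8.39-fold in mean level, from B6 males on low isoleucine at 10760 ± 1257 CPM to DBA males on control at 1282 ± 467 CPM. In order of means, B6 females on low isoleucine followed at 10020 ± 711, then DBA females on low isoleucine (8065 ± 1276), B6 males on control (7408 ± 1523), DBA females on control (6281 ± 171), B6 females on control (6112 ± 1064), B6 females on high isoleucine (5992 ± 1088), DBA females on high isoleucine (5555 ± 1093), DBA males on low isoleucine (5298 ± 1333), B6 males on high isoleucine (3182 ± 583) and DBA males on high isoleucine (1640 ± 550). Libraries of neighbouring groups in this order overlapped in 10 of 11 pairs; the exception was the step between B6 and DBA males on high isoleucine. Cyp4a10 ran over a smaller range, 3.93-fold, with the highest mean in B6 females on low isoleucine (7850 ± 1070 CPM) and the lowest in DBA males on control (2000 ± 518 CPM), and 10 of 11 neighbouring pairs overlapped.

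In full, in order of means (CPM ± SD, n = 6 each), Cyp4a10 ran through B6 females on low isoleucine (7850 ± 1070), B6 males on low isoleucine (7398 ± 633), DBA females on low isoleucine (6047 ± 453), B6 males on control (5149 ± 597), B6 females on high isoleucine (5066 ± 406), DBA females on control (5015 ± 392), B6 females on control (4692 ± 577), DBA females on high isoleucine (4505 ± 306), DBA males on low isoleucine (4077 ± 751), B6 males on high isoleucine (3695 ± 961), DBA males on high isoleucine (2252 ± 272) and DBA males on control (2000 ± 518). For Cyp4a31 the order was B6 males on control (155 ± 52), B6 males on low isoleucine (130 ± 28.4), DBA females on low isoleucine (120 ± 27.9), B6 females on low isoleucine (117 ± 25.2), DBA females on control (82.9 ± 15.8), B6 females on control (71.5 ± 43), DBA females on high isoleucine (66.3 ± 16.9), DBA males on low isoleucine (61.3 ± 10.2), B6 females on high isoleucine (53 ± 13.8), B6 males on high isoleucine (52.5 ± 40.9), DBA males on high isoleucine (17.6 ± 6.07) and DBA males on control (14.1 ± 1.85), a range of 11-fold in which all 11 neighbouring pairs overlapped. For Cyp4a32 it was DBA males on low isoleucine (948 ± 91.2), DBA females on low isoleucine (859 ± 173), DBA females on control (646 ± 151), DBA females on high isoleucine (508 ± 168), DBA males on high isoleucine (380 ± 111), DBA males on control (309 ± 114), B6 males on low isoleucine (72.8 ± 10.8), B6 males on control (67.6 ± 11.5), B6 males on high isoleucine (56.5 ± 15.3), B6 females on low isoleucine (55.2 ± 16.7), B6 females on high isoleucine (29.5 ± 6.33) and B6 females on control (29.2 ± 14.6), a range of 32.5-fold in which 9 of 11 neighbouring pairs overlapped. All 6 DBA groups stood above all 6 B6 groups for Cyp4a32, whereas DBA males on control and high isoleucine were lowest for Cyp4a31.

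For Cyp4a12a and Cyp4a12b the 6 male groups stood above the 6 female groups. Cyp4a12a in males ran through DBA males on control (1069 ± 194), DBA males on high isoleucine (964 ± 113), DBA males on low isoleucine (554 ± 82), B6 males on control (455 ± 127), B6 males on high isoleucine (413 ± 130) and B6 males on low isoleucine (116 ± 40), and Cyp4a12b in males through DBA males on high isoleucine (362 ± 43.3), DBA males on control (342 ± 148), B6 males on high isoleucine (243 ± 106), B6 males on control (233 ± 61.3), DBA males on low isoleucine (131 ± 42.6) and B6 males on low isoleucine (71.1 ± 18.2). In females the medians of Cyp4a12a were DBA females on high isoleucine (0.737), DBA females on control (3.99), DBA females on low isoleucine (2.2), B6 females on control (0.444), B6 females on high isoleucine (0.502) and B6 females on low isoleucine (0.288), and those of Cyp4a12b were B6 females on control (0.277), DBA females on high isoleucine (0.183), DBA females on low isoleucine (0.232), B6 females on low isoleucine (0.218), DBA females on control (0.168) and B6 females on high isoleucine (0.146). In the males of each strain the mean was lowest on low isoleucine for both genes.

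**Figure D1:**
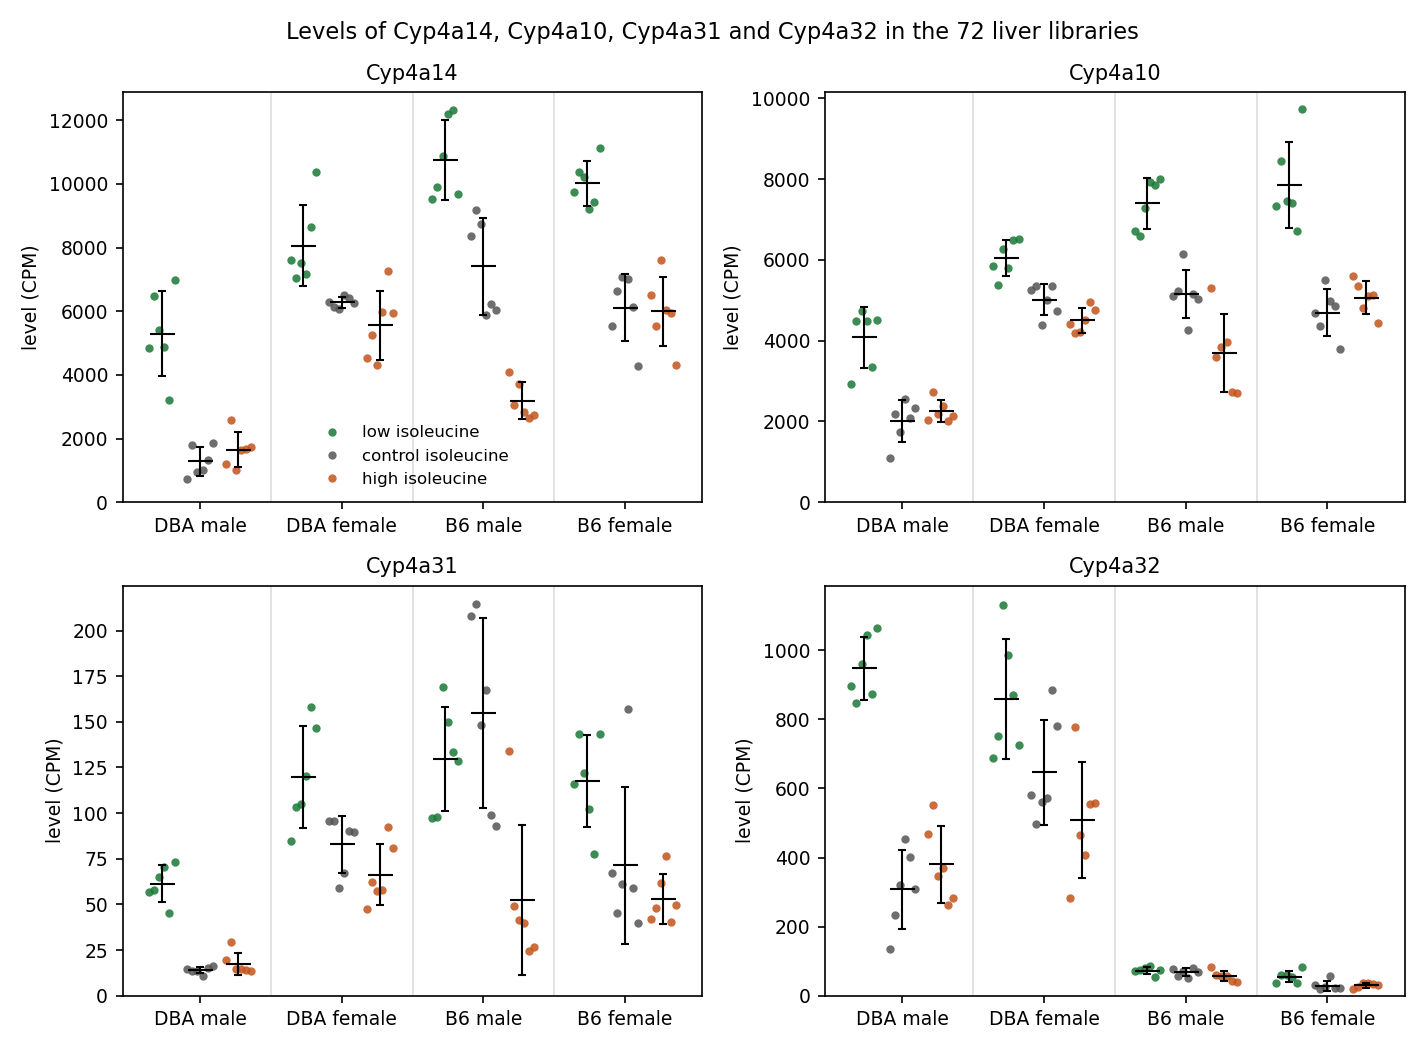
Level in CPM (linear axes) of Cyp4a14, Cyp4a10, Cyp4a31 and Cyp4a32 in each of the 72 liver libraries, grouped by strain and sex and coloured by diet; points are libraries and black bars the mean ± SD of 6. Cyp4a14 and Cyp4a10 are lowest in DBA males on control and high isoleucine (Cyp4a14 at 741 to 2589 CPM), and Cyp4a32 is at 136 CPM or more in every DBA library and at 85.8 CPM or less in every B6 library.

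Low isoleucine was set against the control diet to ask how these genes stand when this amino acid is scarce in a Western diet. Cyp4a14 and Cyp4a10 were higher with low isoleucine in every strain and sex, by the widest margin in DBA males. In DBA males Cyp4a14 had 3220, 5141 and 6975 CPM (lowest, median and highest of 6 libraries) on low isoleucine, against 741, 1173 and 1854 CPM on control. The 2 groups did not overlap. The log2 fold change was 2.05 ± 0.18 (SE; edgeR's quasi-likelihood test, adjusted p = 3.24e-13), a 4.13-fold rise seen in 6 of 6 libraries. In DBA females Cyp4a14 had 7032, 7570 and 10390 CPM on low isoleucine, against 6081, 6269 and 6522 CPM on control, which did not overlap either but gave a log2 fold change of 0.36 ± 0.17 that missed the threshold of 0.05 (edgeR adjusted p = 0.173). In B6 males it had 9538, 10400 and 12310 CPM on low isoleucine, against 5875, 7302 and 9191 CPM on control. Here again all low isoleucine libraries lay above all control libraries, while the log2 fold change of 0.54 ± 0.17 narrowly missed the threshold (edgeR adjusted p = 0.0532) and passed it in a fit of the 18 B6 male libraries alone (edgeR adjusted p = 0.045) and with DESeq2 (adjusted p = 0.0371). With 1 library left out at a time, edgeR adjusted p ran from 0.0387 to 0.138. Cyp4a14 did not pass in a limma fit in which the number shared by a pair of library titles was a random block (adjusted p = 0.187). In B6 females it had 9208, 9975 and 11140 CPM on low isoleucine, against 4294, 6389 and 7063 CPM on control, and rose by 0.71 ± 0.17 on the log2 scale (edgeR adjusted p = 0.00197) without overlap.

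Cyp4a10 followed the same pattern at a smaller size. In DBA males it had 2915, 4483 and 4727 CPM on low isoleucine, against 1103, 2138 and 2566 CPM on control, with a log2 fold change of 1.03 ± 0.13 (edgeR adjusted p = 2.27e-08). In B6 females it had 6724, 7440 and 9723 CPM on low isoleucine, against 3794, 4771 and 5492 CPM on control, with a log2 fold change of 0.74 ± 0.13 (edgeR adjusted p = 2.84e-05). In B6 males it had 6593, 7573 and 8012 CPM on low isoleucine, against 4269, 5123 and 6140 CPM on control, with a log2 fold change of 0.52 ± 0.13 (edgeR adjusted p = 0.00864). In none of these 3 classes did the diets overlap. The B6 male call was lost (adjusted p = 0.061) in a limma fit in which the number shared by a pair of library titles was a random block. In DBA females Cyp4a10 had 5366, 6058 and 6522 CPM on low isoleucine, against 4380, 5127 and 5362 CPM on control, a log2 fold change of 0.27 ± 0.13 (edgeR adjusted p = 0.166), which passed only in a fit of the DBA female libraries alone (edgeR adjusted p = 0.0412).

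Cyp4a31 and Cyp4a32, the less studied copies next to Cyp4a10, rose in DBA males and in B6 females. In DBA males Cyp4a31 had 45.3, 61.4 and 73.1 CPM on low isoleucine, against 10.9, 14.2 and 16.4 CPM on control, a log2 fold change of 2.12 ± 0.28 (edgeR adjusted p = 1.39e-07). Cyp4a32 had 848, 929 and 1065 CPM on low isoleucine in DBA males, against 136, 314 and 453 CPM on control, a log2 fold change of 1.62 ± 0.23 (edgeR adjusted p = 3.94e-07). The diets did not overlap for either gene. In B6 females Cyp4a32 had 36.7, 57.2 and 81.7 CPM on low isoleucine, against 18.7, 23.8 and 58.1 CPM on control, and rose by 0.92 ± 0.23 on the log2 scale (edgeR adjusted p = 0.0024). Cyp4a31 in B6 females had 77.7, 119 and 144 CPM on low isoleucine, against 39.8, 59.9 and 157 CPM on control, with a log2 fold change of 0.72 ± 0.27 just inside the threshold (edgeR adjusted p = 0.0483). The highest control value of both genes is replicate 4, the library with Ddx3y counts. Leaving out 1 library ended this Cyp4a31 call in 10 of 12 cases, with adjusted p up to 0.148, whereas without control replicate 4 it was at 1.11 ± 0.26 (edgeR adjusted p = 0.00115). Cyp4a32 without that library was at 1.24 ± 0.22 (edgeR adjusted p = 2.99e-05). In B6 males neither gene passed (log2 fold changes of -0.26 ± 0.27 for Cyp4a31 and 0.11 ± 0.23 for Cyp4a32), and in DBA females neither passed (0.53 ± 0.27 and 0.41 ± 0.22), although Cyp4a31 did in the fit of that class alone (edgeR adjusted p = 0.0375).

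Cyp4a12a and Cyp4a12b were lower with low isoleucine in the males of both strains, where nearly all of their RNA is found. In B6 males Cyp4a12a had 66.9, 106 and 169 CPM on low isoleucine, against 246, 477 and 623 CPM on control. The groups did not overlap, and Cyp4a12a fell by 1.97 ± 0.62 on the log2 scale (edgeR adjusted p = 0.0472), to 0.256 of the control level. That p lies close to the threshold: it was 0.0602 with DESeq2 and 0.0545 to 0.108 when any of 11 of the 12 libraries was left out. Cyp4a12b had 50.2, 69 and 105 CPM on low isoleucine in B6 males, against 163, 225 and 313 CPM on control, and fell by 1.71 ± 0.42 (edgeR adjusted p = 0.00908; 0.069 with DESeq2). In DBA males Cyp4a12a had 441, 544 and 695 CPM on low isoleucine, against 840, 1081 and 1327 CPM on control. These libraries did not overlap either, yet the log2 fold change of -0.95 ± 0.60 did not pass in the fit of all libraries (edgeR adjusted p = 0.293). In the fit of the 18 DBA male libraries alone it was -0.93 ± 0.13 (edgeR adjusted p = 6.37e-05); the fit of all libraries uses 1 estimate of the spread for the 12 groups, females included. Cyp4a12b had 93.5, 116 and 202 CPM on low isoleucine in DBA males, against 126, 333 and 585 CPM on control, and fell by 1.39 ± 0.42 (edgeR adjusted p = 0.014), a call lost with DESeq2 (adjusted p = 0.0986) and without DBA male control replicate 4 (adjusted p = 0.0504).

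In females both genes were far lower. On low isoleucine Cyp4a12a had a median of 0.288 CPM in B6 females, against 0.444 CPM on control, and the highest of the 12 libraries was the control replicate 4 at 9.69 CPM. Log2 fold changes of -2.45 ± 0.90 for Cyp4a12a and -2.81 ± 0.73 for Cyp4a12b passed in B6 females (edgeR adjusted p = 0.0425 and 0.00408). Without that library they were -0.70 ± 0.99 and -0.61 ± 0.74 (edgeR adjusted p = 0.657 and 0.595), so the B6 female calls of these 2 genes rest on 1 library. In DBA females the values were -0.86 ± 0.69 and 0.57 ± 1.03, and neither passed.

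**Figure D2:**
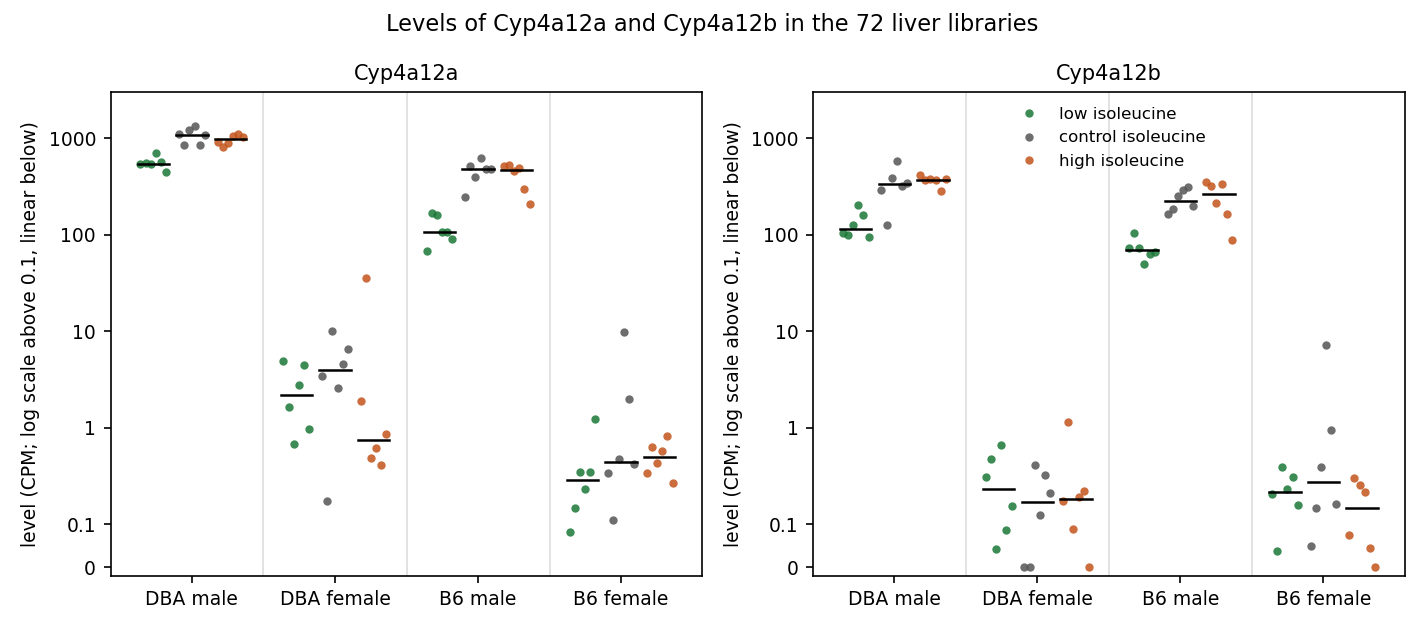
Level of Cyp4a12a and Cyp4a12b in each of the 72 liver libraries, by strain and sex and coloured by diet, on an axis that is logarithmic above 0.1 CPM and linear below; black lines are medians of 6 libraries. Male libraries lie at 50.2 CPM or more and female libraries at 9.96 CPM or less, except for DBA female high isoleucine replicate 2 with Cyp4a12a at 35.9 CPM.

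Counted by class, all 6 genes passed in B6 females (4 higher, 2 lower; 4 when the B6 control replicate 4 is left out), 5 in DBA males (4 higher, 1 lower), 3 in B6 males (1 higher, 2 lower) and 0 in DBA females. Of all genes tested, 20.8% passed in B6 females (9.53% higher, 11.3% lower), 17.7% in DBA males (7.48% higher, 10.2% lower), 5% in B6 males (1.74% higher, 3.26% lower) and 11.8% in DBA females (5.11% higher, 6.66% lower). In DBA females 2 of the 6 had an unadjusted p under 0.05 with edgeR, and DESeq2 and limma also called 0. As the mean of the 4 classes (24 libraries per diet), 6 of 6 passed, 4 higher and 2 lower, where 37.8% of all genes did. Cyp4a14 had a mean log2 fold change of 0.92 ± 0.09 (edgeR adjusted p = 5.49e-13), Cyp4a10 of 0.64 ± 0.06, Cyp4a31 of 0.78 ± 0.14 and Cyp4a32 of 0.76 ± 0.11. Cyp4a12a was at -1.56 ± 0.36 (edgeR adjusted p = 0.000353) and Cyp4a12b at -1.33 ± 0.39 (edgeR adjusted p = 0.00463). With 1 library left out at a time, Cyp4a12a ran from -1.76 to -1.12 and passed each time (edgeR adjusted p up to 0.00829). Cyp4a12b did not pass with limma, either without the title number as a block (adjusted p = 0.109) or with it (adjusted p = 0.184), and was at -0.78 ± 0.30 (edgeR adjusted p = 0.0336) without B6 female control replicate 4. All 24 low isoleucine libraries lay above their control mean for Cyp4a14 and Cyp4a10. The median over the 6 genes was 0.70 and that over all genes was near 0 (-0.003).

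**Figure D3:**
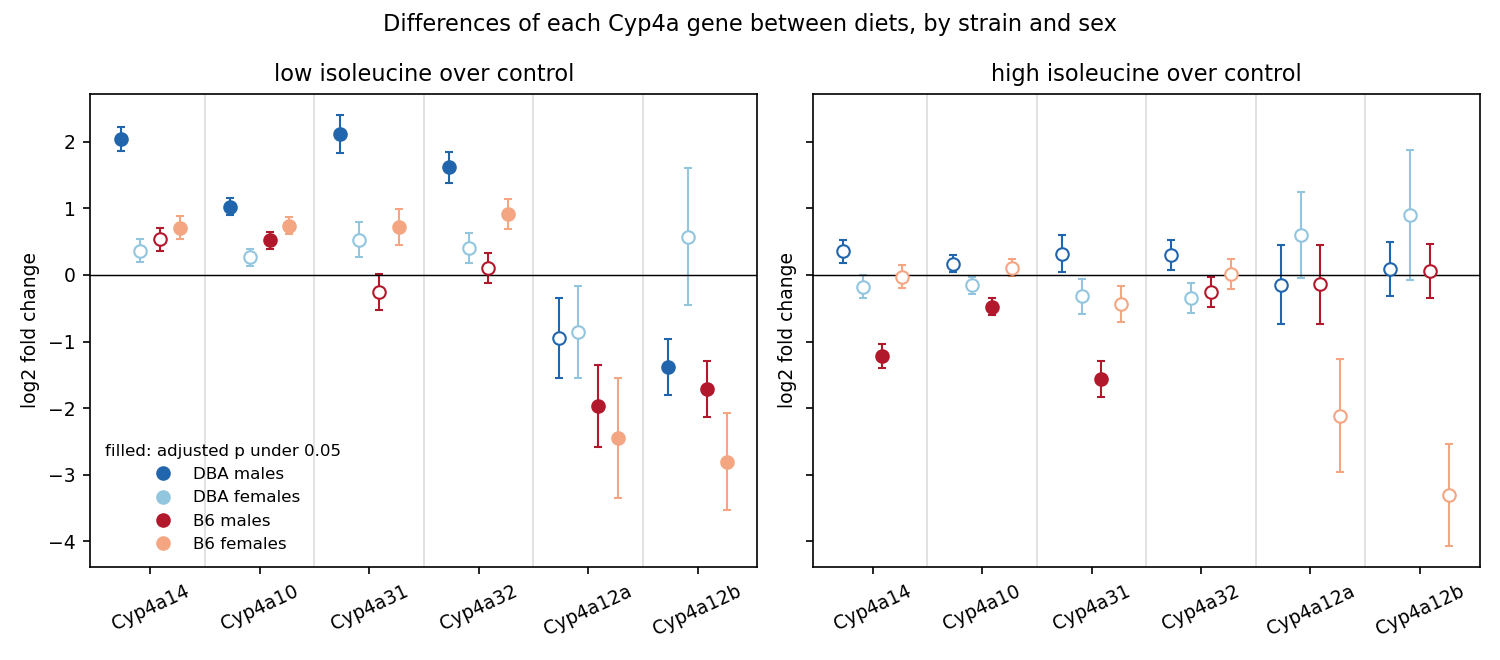
Log2 fold change (± SE) of each Cyp4a gene for low isoleucine over control and for high isoleucine over control, in DBA males, DBA females, B6 males and B6 females (6 libraries per group); filled circles have an edgeR adjusted p under 0.05. DBA males show the largest rises with low isoleucine (Cyp4a31 at 2.12 and Cyp4a14 at 2.05), and the filled circles with high isoleucine are all B6 male falls.

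The rises with low isoleucine were larger in males than in females of the DBA strain. The male minus female difference between log2 fold changes was 1.69 ± 0.25 for Cyp4a14 (edgeR adjusted p = 1.96e-05), 1.59 ± 0.39 for Cyp4a31 (adjusted p = 0.0111), 1.21 ± 0.32 for Cyp4a32 (adjusted p = 0.0208) and 0.76 ± 0.18 for Cyp4a10 (adjusted p = 0.00958). These 4 of 6 genes stand beside 2.76% of all genes. With the title number as a block Cyp4a10 (adjusted p = 0.0502) and Cyp4a32 (adjusted p = 0.0802) no longer passed. In B6 the same difference passed for 0 of 6 genes with edgeR, as with DESeq2 and limma (2 at an unadjusted p under 0.05; 0.829% of all genes passed). Without B6 female control replicate 4 it passed for Cyp4a31 (-1.37 ± 0.36, edgeR adjusted p = 0.0207) and Cyp4a32 (-1.13 ± 0.30, edgeR adjusted p = 0.022), both lower in males than in females. Averaged over strains, Cyp4a14 alone passed (0.76 ± 0.17, edgeR adjusted p = 0.00389; 1 of 6, beside 6.68% of all genes). The DBA minus B6 difference passed for Cyp4a31 (1.10 ± 0.27, edgeR adjusted p = 0.0237; 1 of 6, beside 1.39% of all genes), but not with the title number as a block (adjusted p = 0.117). For Cyp4a14 it was 0.58 ± 0.17 (edgeR adjusted p = 0.0681) and passed with DESeq2 (adjusted p = 0.039). With the title number as a block it did not pass (limma adjusted p = 0.279). Of 48 edgeR fits that each left out 1 library, 3 passed (adjusted p = 0.0328 to 0.0413), and the highest adjusted p was 0.11. The 3 were without DBA male control replicate 2, control replicate 6 or low isoleucine replicate 5.

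With edgeR, high isoleucine gave calls in B6 males and in no other class. In B6 males Cyp4a14 had 2653, 2945 and 4080 CPM on high isoleucine, against 5875, 7302 and 9191 CPM on control. No libraries overlapped, and Cyp4a14 fell by 1.22 ± 0.18 on the log2 scale (edgeR adjusted p = 1.76e-05), to 0.43 of the control level. Cyp4a31 had 24.3, 40.6 and 134 CPM on high isoleucine, against 92.7, 158 and 215 CPM on control, and fell by 1.57 ± 0.28 (edgeR adjusted p = 0.000353); the value of 134 CPM is 1 library, replicate 1, and the next was 49 CPM. Cyp4a10 had 2712, 3721 and 5311 CPM on high isoleucine, against 4269, 5123 and 6140 CPM on control, and fell by 0.48 ± 0.13 (edgeR adjusted p = 0.021). This last call was lost with the title number as a block (adjusted p = 0.0778), in the fit of B6 males alone (adjusted p = 0.0846), and without control replicate 3, high isoleucine replicate 5 or high isoleucine replicate 6 (adjusted p = 0.058 to 0.113). These 3 of 6 genes stand beside 4.51% of all genes tested. Cyp4a12a and Cyp4a12b were level with control there (-0.14 ± 0.59 and 0.06 ± 0.41).

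In the other 3 classes 0 of the 6 genes passed with edgeR; 2 in B6 females, 1 in DBA males and 0 in DBA females had an unadjusted p under 0.05. DESeq2 called Cyp4a12b in B6 females (-3.32 ± 0.69, adjusted p = 0.0108), where the control mean again holds replicate 4. Of all genes 0% passed in B6 females, 0.0134% in DBA males and 0.00669% in DBA females. As the mean of the 4 classes 0 of 6 passed (0% of all genes; 2 of 6 at an unadjusted p under 0.05, and 0 with DESeq2 and limma), with Cyp4a31 at -0.50 ± 0.14 and Cyp4a14 at -0.27 ± 0.09. Without B6 male high isoleucine replicate 1, Cyp4a31 passed (-0.63 ± 0.12, edgeR adjusted p = 0.0199).

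Between the extremes of the diet series, high against low isoleucine as the mean of the 4 classes, 4 genes fell and 1 rose, 5 of 6 beside 43.6% of all genes (22.9% higher, 20.7% lower). Cyp4a31 fell by 1.28 ± 0.14 on the log2 scale, Cyp4a14 by 1.18 ± 0.09 (edgeR adjusted p = 5.66e-17), Cyp4a32 by 0.84 ± 0.11 and Cyp4a10 by 0.73 ± 0.06. All 24 high isoleucine libraries lay below their low isoleucine mean for Cyp4a14 and Cyp4a10. Cyp4a12a rose by 1.11 ± 0.38 (edgeR adjusted p = 0.0155), which became 0.35 ± 0.31 (adjusted p = 0.373) without DBA female high isoleucine replicate 2, the library with 35.9 CPM of this gene; the other 5 libraries of that group had 0.406 to 1.89 CPM. The comparisons with control and this one share libraries and are not independent of each other.

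The ratio of Cyp4a14 to Cyp4a10, both per kilobase, had medians that differed between diets in males; it was not tested. Its median was 1.05 in DBA males on low isoleucine, 0.529 on control and 0.607 on high isoleucine. In B6 males it was 1.21 on low isoleucine, 1.14 on control and 0.737 on high isoleucine. In the 6 female groups the medians lay between 0.942 and 1.06.

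Cell type markers were read beside these results. In a bulk liver sample fewer cells of a type and less RNA per cell cannot be told apart. As the mean of the classes, 5 of 8 hepatocyte markers rose and 0 fell with low isoleucine (median log2 fold change 0.21), and 5 of 7 Kupffer cell markers fell and 0 rose (-0.39), beside 17.8% of all genes higher and 20% lower. The summed Kupffer cell markers were at 132 to 201 CPM in DBA males on low isoleucine, against 102 to 204 CPM on control, at 155 to 242 against 155 to 279 CPM in DBA females, at 69.4 to 162 against 162 to 296 CPM in B6 males and at 185 to 302 against 239 to 674 CPM in B6 females. All 7 of these markers had counts in all 72 libraries. Their part in the Cyp4a results was not tested. In the B6 male comparison of high isoleucine with control, 2 of 8 hepatocyte markers fell, beside 2.61% of all genes, with summed levels of 70620 to 100700 CPM on high isoleucine, against 89570 to 122400 CPM on control. The 3 adipocyte markers together were at 8.67 to 193 CPM there, against 0.0879 to 9.84 CPM on control; Cfd was the only one of the 3 to pass the filter and rose, while Adipoq was at 0 in 23 and Plin1 in 43 of the 72 libraries. Their part in that result was not tested.

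Males and females on the control diet were set against each other in each strain. In DBA mice Cyp4a12a had 840, 1081 and 1327 CPM in males, against 0.174, 3.99 and 9.96 CPM in females, and Cyp4a12b had 126, 333 and 585 CPM in males, against 0, 0.168 and 0.409 CPM in females. In B6 mice Cyp4a12a had 246, 477 and 623 CPM in males, against 0.11, 0.444 and 9.69 CPM in females, and Cyp4a12b had 163, 225 and 313 CPM in males, against 0.0485, 0.277 and 7.25 CPM in females. No male library of either gene overlapped with a female one. The log2 fold changes were 7.88 ± 0.81 and 10.86 ± 0.70 in DBA mice and 7.67 ± 0.81 and 7.23 ± 0.56 in B6 mice for Cyp4a12a and Cyp4a12b (edgeR adjusted p of 6.9e-11 or less). Without B6 female control replicate 4 the B6 values were 9.42 ± 0.89 and 9.42 ± 0.53. Over the 6 control libraries the counts in DBA females summed to 607 for Cyp4a12a and 24 for Cyp4a12b, and in B6 females to 374 and 260.

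The other 4 genes were all lower in males of the DBA strain: the log2 fold change was -2.56 ± 0.29 for Cyp4a31, -2.29 ± 0.18 for Cyp4a14, -1.33 ± 0.13 for Cyp4a10 and -1.07 ± 0.23 for Cyp4a32 (edgeR adjusted p of 0.000227 or less), with no overlap between the sexes for any of the 4. The share of all genes without overlap is not given here. Cyp4a14 had 741, 1173 and 1854 CPM in DBA males, against 6081, 6269 and 6522 CPM in DBA females. In B6 mice Cyp4a31 was higher in males, with 92.7, 158 and 215 CPM against 39.8, 59.9 and 157 CPM in females (log2 fold change 1.12 ± 0.27, edgeR adjusted p = 0.00237). Cyp4a32 was also higher in B6 males, with 50.3, 69.7 and 79.4 CPM against 18.7, 23.8 and 58.1 CPM in females (1.21 ± 0.23, edgeR adjusted p = 8.71e-05). Cyp4a14 (0.28 ± 0.17) and Cyp4a10 (0.13 ± 0.13) did not pass in B6 mice. In all, 6 of 6 genes passed in DBA mice, beside 25.7% of all genes (14.4% higher, 11.3% lower), and 4 of 6 in B6 mice, all higher, beside 17.4% (8.93% higher, 8.49% lower). The difference of these sex effects between strains was not tested.

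DBA and B6 livers on the control diet differed in Cyp4a32 in both sexes. In females Cyp4a32 had 497, 577 and 884 CPM in DBA, against 18.7, 23.8 and 58.1 CPM in B6, a log2 fold change of 4.47 ± 0.26 (edgeR adjusted p = 2.19e-23) or 22.1-fold. In males it had 136, 314 and 453 CPM in DBA, against 50.3, 69.7 and 79.4 CPM in B6 (2.19 ± 0.23, edgeR adjusted p = 5.26e-12). Strains did not overlap in either sex. The other copies near it went the other way in males: Cyp4a31 had 10.9, 14.2 and 16.4 CPM in DBA, against 92.7, 158 and 215 CPM in B6, a log2 fold change of -3.46 ± 0.30 (edgeR adjusted p = 2.5e-15), and Cyp4a10 was at -1.37 ± 0.13 (adjusted p = 5.63e-14). Cyp4a14 had 741, 1173 and 1854 CPM in DBA males, against 5875, 7302 and 9191 CPM in B6 males, a log2 fold change of -2.53 ± 0.18 (edgeR adjusted p = 3.44e-19).

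In females Cyp4a14 (0.04 ± 0.17), Cyp4a10 (0.10 ± 0.13) and Cyp4a31 (0.21 ± 0.27) did not pass between DBA and B6. Cyp4a12b passed there as lower in DBA (-3.09 ± 0.77, edgeR adjusted p = 0.00119), but without B6 female control replicate 4 it was at -0.89 ± 0.78 (adjusted p = 0.402), and Cyp4a12a instead passed as higher in DBA (2.77 ± 0.78, adjusted p = 0.00394, against 1.02 ± 0.69 and 0.266 with that library). In males Cyp4a12a had no overlap between strains (1.23 ± 0.60, edgeR adjusted p = 0.0967) and passed with limma (1.28 ± 0.38, adjusted p = 0.0052). In all, 4 of 6 genes passed in males (1 higher, 3 lower), beside 40.5% of all genes (20.9% higher, 19.6% lower), and 2 of 6 in females (1 higher, 1 lower), beside 32.3% (15.8% higher, 16.5% lower). Reads of both strains were counted on GRCm38, an assembly of the C57BL/6J genome, so a strain difference in a gene's RNA and in how DBA reads divide between near copies cannot be told apart.

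**Figure D4:**
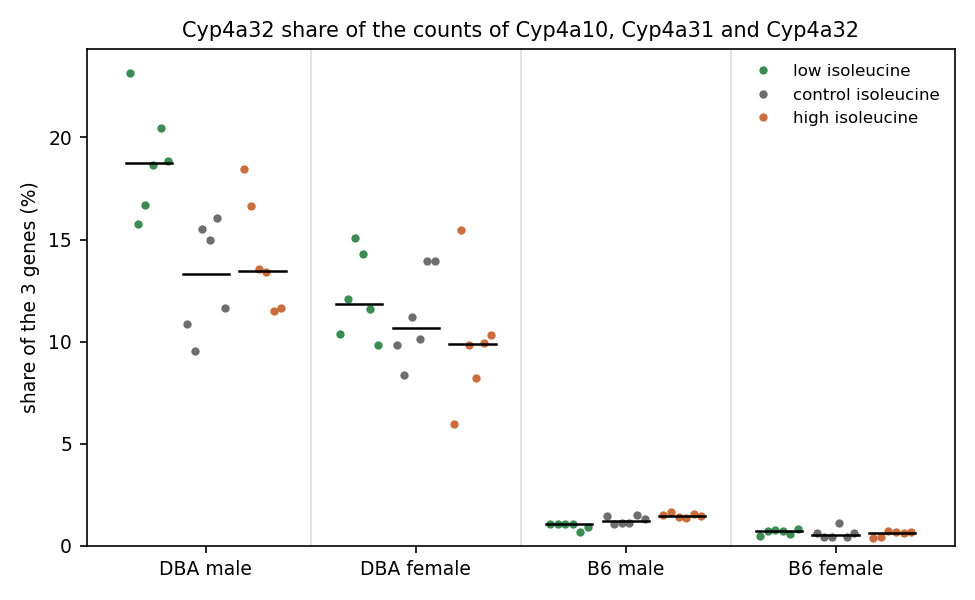
Share (%) of the summed counts of Cyp4a10, Cyp4a31 and Cyp4a32 that were assigned to Cyp4a32, in each of the 72 liver libraries, by strain and sex and coloured by diet; black lines are medians of 6 libraries. DBA libraries lie between 5.98 and 23.2%, above all B6 libraries, which lie between 0.353 and 1.65%.

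Near copies divided their counts differently in the 2 strains (plot of the Cyp4a32 share). Cyp4a32 took a median of 15.6% of the counts of Cyp4a10, Cyp4a31 and Cyp4a32 in the 18 DBA male libraries, 10.4% in DBA females, 1.23% in B6 males and 0.623% in B6 females. Cyp4a31 took 0.715% in DBA males, 1.46% in DBA females, 1.73% in B6 males and 1.23% in B6 females. Within the other pair Cyp4a12b took a median of 23.1% in DBA males and 37.5% in B6 males.

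Summing the copies before the fit removes that division. With low isoleucine the sum of Cyp4a10, Cyp4a31 and Cyp4a32 rose in DBA males by 1.13 ± 0.13 on the log2 scale (edgeR adjusted p = 2.59e-09), in B6 males by 0.50 ± 0.13 (adjusted p = 0.0121) and in B6 females by 0.74 ± 0.13 (adjusted p = 2.75e-05), and was at 0.29 ± 0.13 in DBA females (adjusted p = 0.132). The sum of Cyp4a12a and Cyp4a12b was at -1.04 ± 0.61 in DBA males (edgeR adjusted p = 0.251) and -1.88 ± 0.62 in B6 males (adjusted p = 0.0639). Neither passed, although the diets did not overlap. DBA males had 535 to 897 CPM on low isoleucine against 983 to 1911 CPM on control, and B6 males 139 to 274 against 409 to 914 CPM. As the mean of the classes this sum was at -1.57 ± 0.35 (adjusted p = 0.000239). That mean includes B6 females at -2.59 ± 0.82 (adjusted p = 0.0185), where control replicate 4 had 16.9 CPM against a group median of 0.721 CPM. No fit of the sum left that library out. With high isoleucine the sum around Cyp4a10 fell in B6 males by 0.50 ± 0.13 (edgeR adjusted p = 0.0163). Between strains on control it was at 0.26 ± 0.13 in females (edgeR adjusted p = 0.11) and was lower in DBA males by 1.21 ± 0.13 (adjusted p = 4.14e-12). In females 6 of 6 DBA libraries lay above the B6 mean of the sum. Cyp4a10 took a median of 88.2% of these counts in the 18 DBA female libraries and 98.1% in the B6 female ones. The sum therefore mostly follows Cyp4a10 and cannot decide on the strain difference of Cyp4a32.

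Other genes of the same pathways were read from fixed lists, beside 17.8% of all genes higher and 20% lower with low isoleucine as the mean of the 4 classes. Of 14 other Cyp4 genes 9 were measured; 3 rose and 3 fell (median log2 fold change -0.07). Cyp4f17 rose by 0.60 ± 0.08 (edgeR adjusted p = 5.87e-08) and Cyp4f39 by 0.94 ± 0.19, while Cyp4v3, another fatty acid hydroxylase, fell by 0.40 ± 0.06 and Cyp4f14, which hydroxylates leukotriene B4, fell by 0.42 ± 0.10. Among 37 fatty acid oxidation genes known as PPARA targets, 8 were higher and 4 lower past the threshold (median 0.05, against -0.003 for all genes), so most of the list did not pass in the direction of Cyp4a14 and Cyp4a10. Those with the lowest p were Angptl4, an inhibitor of lipoprotein lipase (0.62 ± 0.09), Pdk4, a kinase that shuts off pyruvate dehydrogenase (1.59 ± 0.22), Eci2, an enoyl-CoA isomerase (0.29 ± 0.04), and Ehhadh, the peroxisomal bifunctional enzyme (0.75 ± 0.11). In DBA males 9 of the 37 rose and 1 fell, beside 7.48% of all genes higher and 10.2% lower, with Ehhadh at 1.47 ± 0.22 (edgeR adjusted p = 1e-06), Acot1, an acyl-CoA thioesterase, at 1.34 ± 0.21 and Pdk4 at 2.61 ± 0.46. In DBA females 4 rose and 2 fell, beside 5.11% of all genes higher and 6.66% lower. In B6 males 4 rose and 0 fell, beside 1.74% higher and 3.26% lower. In B6 females 2 rose and 2 fell, shares below the 9.53% higher and 11.3% lower among all genes. With high isoleucine in B6 males 1 of the 37 fell, Ehhadh (-0.97 ± 0.22, edgeR adjusted p = 0.00551), a share near the 2.61% of all genes that were lower.

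Ehhadh was lower in DBA males than in DBA females on control (-1.38 ± 0.22, edgeR adjusted p = 1.15e-06), as were Acot1 (-1.78 ± 0.21) and Abcd2, a peroxisomal fatty acid transporter (-3.20 ± 0.32). Of the 37 genes 11 were lower and 3 higher in DBA males than in DBA females, and 22 were lower and 1 higher in DBA than in B6 males, beside 11.3% and 19.6% of all genes lower. Abcd2 and Acot3 of this list are also on the list of female-biased liver genes read below. Lower values of Abcd2 and Acot3 in males than in females would follow from that choice and say little about the PPARA list. Ehhadh and Acot1 are not on the list of female-biased genes. Ppara itself passed in 0 of the diet comparisons with edgeR. Its median was 40.4 CPM in DBA males on low isoleucine, against 47.2 CPM on control, and its log2 fold change as the mean of the 4 classes was -0.03 ± 0.14. It was higher in B6 males than in B6 females on control (0.96 ± 0.28, edgeR adjusted p = 0.0115) and lower in DBA than in B6 males (-0.73 ± 0.28, edgeR adjusted p = 0.0314).

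Of 15 partners of omega-oxidation 3 rose and 4 fell with low isoleucine as the mean of the 4 classes (median 0.03), near the shares of all genes, 17.8% higher and 20% lower. Of these partners 5 are also on the PPARA list. Adh4, an alcohol dehydrogenase that oxidises omega-hydroxy fatty acids, fell by 0.78 ± 0.09 on the log2 scale (edgeR adjusted p = 4.81e-11). Cyb5r3, the cytochrome b5 reductase, fell by 0.53 ± 0.08, and Aldh3a2, the fatty aldehyde dehydrogenase, by 0.38 ± 0.08. Of 12 nuclear receptors and coactivators 2 rose and 2 fell (median 0.09), also near those shares of all genes. Ppargc1a, the coactivator PGC-1alpha, rose by 0.72 ± 0.15 and the receptor Hnf4a by 0.22 ± 0.06, while Pparg fell by 0.67 ± 0.10 and Rxra, the partner receptor of PPARA, by 0.16 ± 0.06.

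Lists of sex-biased liver genes were read beside Cyp4a12a and Cyp4a12b, which are on neither of them. With low isoleucine 9 of 15 male-biased genes fell and 0 rose in B6 males (median -1.35, beside 3.26% of all genes lower), among them the major urinary protein gene Mup21 (-2.45 ± 0.32, edgeR adjusted p = 5.23e-07) and Hsd3b5, a male-specific steroid dehydrogenase (-3.32 ± 0.63). In DBA males 2 of 15 fell and 1 rose (median -0.19), near the shares of all genes, 10.2% lower and 7.48% higher. Of 16 female-biased genes 4 rose and 0 fell in B6 males (median 0.93, beside 1.74% of all genes higher and 3.26% lower), among them Slco1a4, an organic anion transporter (1.41 ± 0.29, edgeR adjusted p = 0.00169), and 3 rose and 2 fell in DBA males (median 0.39, beside 7.48% higher and 10.2% lower), with Cyp3a44, a female-specific cytochrome P450, at 2.93 ± 0.54. Of 12 genes of growth hormone and androgen signal 3 rose and 1 fell as the mean of the classes (median 0.01), beside 17.8% of all genes higher and 20% lower. Ghr, the growth hormone receptor, fell by 0.45 ± 0.06 (edgeR adjusted p = 1.55e-08), and Socs2, a feedback inhibitor of that receptor, rose by 0.81 ± 0.25.

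Likeness of pattern was described by Pearson's r on log2 CPM values, over the 12 group means and over the 72 libraries after subtracting the group means; the points share library depth and diet groups, and no test was made. Over group means Cyp4a14 was most like Cyp4a10 (r = 0.985), Lepr (0.979) and Apom (0.974), and Cyp4a10 was most like Lepr (0.988). Cyp4a31 was most like Cyp4a14 (0.963) and Cyp4a12a most like C6 (0.989) and Mup7 (0.988). Cyp4a12b was most like Eif2s3y (0.99), a gene of the Y chromosome. Cyp4a32, with its strain pattern, was most like Rpl3-ps1 (0.982) and Snhg14 (0.979), and its r with Cyp4a10 over group means was -0.29. Within groups, r over the 72 libraries was 0.64 between Cyp4a14 and Cyp4a10, 0.66 between Cyp4a12a and Cyp4a12b, 0.50 between Cyp4a10 and Cyp4a32, and -0.01 between Cyp4a12a and Cyp4a14. Within groups Cyp4a12a was most like Mup7 (0.71), and Cyp4a14 most like Cyp39a1 (0.67).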

How the data were processed

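Reads of 72 liver libraries were aligned to GRCm38, and expected counts by Ensembl identifier came from the authors, per the labels' protocols. Which aligner and counter made them is not given in the sources used here. R 3.4.3, limma and edgeR are named in the submitters' processing notes. These deposited expected counts need not be whole, and 9.56% of nonzero values were not (tolerance 1e-06). Of 50308 lines 1 was incomplete and left out; 2 deposited tables of fold changes, whose group codes are not in the labels, were not used here. Identifiers were paired with GENCODE M21 symbols (50307 matched).

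Counts were rounded, filtered with filterByExpr by group and scaled by TMM, and 14954 genes were tested with edgeR 4.0.16 (quasi-likelihood, robust, R 4.3.3) in a single fit with 12 group means. In each of 19 comparisons p-values were Benjamini-Hochberg adjusted over the 14954 genes, and 0.05 was the threshold. The common biological coefficient of variation was 0.21. Alternatives were DESeq2 1.42.0, limma 3.58.1 with and without the title number (36 numbers, each shared by 2 libraries of a group, meaning not in the labels; consensus correlation 0.244) as a random block, DESeq2 size factors, no filter, each class alone, and each library left out. The scripts were tested on simulated counts. Coding sequences were aligned with MAFFT 7.526.

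The genes and lists were chosen with earlier results of these data known. The text names the 6 Cyp4a genes, Ppara and, per list and comparison, at most 4 genes with the lowest adjusted p. 1 gene that this rule would name is not reported here. Libraries above the mean are counted against the mean of the group compared. Where libraries of groups are said not to overlap, the share of all genes without overlap is not given.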

Additional observations from a re-analysis of the deposited data

Results flagged for a closer look

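Differences between classes in the change with low isoleucine passed the test for 4 genes. Between DBA males and DBA females the log2 difference was 0.76 for Cyp4a10, 1.69 for Cyp4a14, 1.59 for Cyp4a31 and 1.21 for Cyp4a32, each larger in males. These 4 of 6 genes stand beside 2.76% of all genes. With the title number as a block Cyp4a10 and Cyp4a32 did not pass (limma adjusted p = 0.0502 and 0.0802). Between males and females as the mean of strains the log2 difference was 0.76 for Cyp4a14 (1 of 6, beside 6.68% of all genes). Between DBA and B6 as the mean of sexes it was 1.10 for Cyp4a31 (1 of 6, beside 1.39% of all genes). That Cyp4a31 difference did not pass with the block (limma adjusted p = 0.117).

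Single libraries stood apart from the other 5 of their group in 9 of 72 sets of a gene in a group (gap to the nearest library over the group's range above Dixon's 95% critical value); chance flags about 1 in 20. B6 female control replicate 4 was the highest library for Cyp4a12a (9.69 CPM), Cyp4a12b (7.25 CPM), Cyp4a31 (157 CPM) and Cyp4a32 (58.1 CPM). DBA female high isoleucine replicate 2 was the highest for Cyp4a12a (35.9 CPM) and Cyp4a12b (1.14 CPM), and Ddx3y was at 0 in it. Male-biased genes read there were also above the other 5 libraries of that group. Cyp2d9 was at 440 CPM (133 to 209 in the other 5) and Mup20 at 21.8 CPM (8.67 to 14.6). Elovl3 was at 13.45 CPM (6.01 to 10.39) and Slco1a1 at 81 CPM (23 to 73.3). No test was made of this. B6 female low isoleucine replicate 6 was the highest for Cyp4a12a (1.23 CPM), B6 male high isoleucine replicate 1 the highest for Cyp4a31 (134 CPM) and DBA male high isoleucine replicate 5 the lowest for Cyp4a12b (282 CPM).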

How the results depend on the processing

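Over 6 alternative settings most results of single genes kept their direction and their side of the threshold: 113 of 114 with DESeq2 size factors, 111 without the filter, 108 with DESeq2, 103 with limma, 98 with limma and the title number as a replicate block and 37 of 44 in fits of a class alone. Counts of called Cyp4a genes moved by more than 1.5 times as follows. The DBA minus B6 difference in the low isoleucine change was called for 2 genes with DESeq2 and 0 with the block, against 1. DBA against B6 females had 1 call with limma and 1 with the block, against 2. High isoleucine in B6 females had 1 with DESeq2, against 0. In fits of a class alone, low isoleucine had 3 calls in B6 females, against 6, and 2 in DBA females, against 0. The male minus female difference in DBA had 2 with the block, against 4. Smaller moves were 4 (limma, the block, no filter) and 5 (DESeq2 size factors) against 6 for low isoleucine in B6 females, 2 (DESeq2, the block, no filter) and 4 (class alone) against 3 in B6 males, 4 (DESeq2) and 6 (class alone) against 5 in DBA males, 5 (limma, the block) against 6 as the mean of classes, 2 (class alone, the block) against 3 for high isoleucine in B6 males, 4 (limma, the block) against 5 for high against low isoleucine and 5 (limma, the block) against 4 for DBA against B6 males. The block also lowered counts over all genes, to 1852 from 3115 (low isoleucine, B6 females), 238 from 748 (B6 males), 827 from 1760 (DBA females), 1649 from 2644 (DBA males), 136 from 674 (high isoleucine, B6 males), 130 from 412 (male minus female difference, DBA), 3 from 124 (the same, B6), 300 from 999 (mean of strains), 11 from 208 (DBA minus B6 difference) and 1532 from 2605 (male against female, B6). The cause was not tested.

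Directions turned only for results that were not called. With the block and without it in limma, Cyp4a12a was at -0.794 and -0.835 (high isoleucine, DBA females), -0.595 and -0.59 (male minus female difference, B6) and -0.451 and -0.465 (mean of strains), and Cyp4a12b at -0.042 and -0.04 (high isoleucine, B6 males) and -0.532 and -0.542 (male minus female difference, B6).

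With each library left out in turn, 2513 of 2592 results stayed, 35 lost and 10 gained a call and 34 turned direction. Calls ranged from 1 to 2 (DBA minus B6 difference), 0 to 1 (high isoleucine, mean of classes), 0 to 2 (male minus female difference, B6), 4 to 5 (low isoleucine, B6 females), 2 to 4 (B6 males), 4 to 5 (DBA males), 2 to 3 (high isoleucine, B6 males) and 4 to 5 (high against low). Log2 ranges that crossed 0 were, for Cyp4a10, -0.046 to 0.058 (DBA minus B6 difference); for Cyp4a12a, -2.426 to 0.991 (high isoleucine, DBA females), -1.271 to 1.282 (male minus female difference, B6), -0.48 to 0.191 (DBA) and -0.679 to 0.597 (mean of strains); for Cyp4a12b, -0.06 to 0.233 (high isoleucine, B6 males), -0.324 to 1.314 (DBA females), -0.087 to 0.306 (DBA males) and -1.102 to 1.341 (male minus female difference, B6); for Cyp4a14, -0.044 to 0.085 (DBA against B6 females) and -0.112 to 0.05 (high isoleucine, B6 females); and for Cyp4a32, -0.085 to 0.335 (high isoleucine, B6 females) and -0.113 to 0.007 (mean of classes). In the female groups the counts of 6 libraries summed to 58 to 1235 for Cyp4a12a and 24 to 260 for Cyp4a12b, which limits the precision of those values.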
